A study of Mus musculus with 29 samples.

Results

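The enzymes described here write or remove acetyl and methyl groups on histones, or methylate and oxidise cytosine in DNA. They were chosen by gene symbol, not by any measured value: genes named Kdm, Hdac, Sirt, Dnmt, Tet, Ezh, Prmt or Kat followed by a number, which took 52 of 21819 genes in the B cell files and 56 of 21675 in the fibroblast files. The difference of 4 is Kat6a, Kat6b, Kat7 and Kat8, which the B cell files list under the older symbols Myst3, Myst4, Myst2 and Myst1. The members are 14 lysine demethylases, 8 arginine methyltransferases, 7 acetyltransferases, 7 sirtuins, 11 other deacetylases, 4 DNA methyltransferases, 3 Tet dioxygenases and the 2 methyltransferases Ezh1 and Ezh2. Kdm5c and Kdm5d were left out of the set.

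The series compares mouse cells with different Myc activity in 29 libraries. Spleen B cells came from C57BL/6 mice aged 6 to 8 weeks and were enriched on B220 beads, from wild-type mice (WT_spleen, n = 4) and from Eμ-myc mice, whose Myc transgene is driven by an immunoglobulin heavy chain enhancer (Tg_spleen, n = 4). Tumour cells were lymph node suspensions of C57BL/6 Eμ-myc mice, not purified further (Tg_lymphnode, n = 3). The fibroblasts were 3T9 cells of mixed strain from E13.5 embryos, with floxed c-myc alleles and a MycER construct introduced by infection in culture, so all their groups carry both. MycER is a Myc fusion protein that is activated by 4-hydroxytamoxifen (OHT). Total RNA was taken with ethanol vehicle (OHT_0h) and after 4, 8 and 16 h of 400 nM OHT (OHT_4h, OHT_8h, OHT_16h, n = 4 each). RNA made within a 10 min pulse of 300 µM 4-thiouridine (4sU) was taken from 1 library at 0 h and 1 at 4 h. Nothing in the labels says whether libraries of a group came from separate animals or cultures, so the p-values measure only the spread between these libraries.

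Acetyltransferases open chromatin by neutralising histone lysines, and deacetylases and sirtuins reverse this. Ezh1 and Ezh2 are the alternative catalytic subunits of Polycomb repressive complex 2, which methylates lysine 27 of histone H3; Ezh2 is typical of dividing cells and Ezh1 of resting ones, and germinal centre B cells depend on Ezh2. Arginine methyltransferases modify histones and also splicing factors, and Prmt5 is their main source of symmetric dimethylarginine.

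Values are FPKM as deposited, reads per kilobase of transcript on a scale that the sources do not give. Low values are spaced as if scaled to 0.82 to 1.47 M reads in the B cell libraries. In the total RNA fibroblast libraries this was 17.0 to 17.2 M. There the reads on genes, given below, varied more than this, so depth differences may remain in the values. Scales differ between the B cell and the fibroblast files, and no level is set across the 2. The files hold no counts; the spacing of low values implies 8.48 to 15.8 M reads on genes in the B cell libraries and 13.46 to 18.4 M in the total RNA fibroblast libraries, and the members had a median of 459 to 1366 and 943 to 1567 reads per library. Fold changes are on the scale of log2(FPKM + 0.5), given with their standard error, and adjusted p-values are two-sided from limma with Benjamini-Hochberg adjustment over all genes tested. A gene is called at an adjusted p under 0.05. Levels of Myc were 226 ± 34.7 FPKM (SD, n = 4) in WT_spleen, 1556 ± 604 (n = 4) in Tg_spleen and 2020 ± 228 (n = 3) in Tg_lymphnode. In the fibroblasts they were 24.3 ± 3.98 FPKM in OHT_0h and 9.78 ± 1.41 in OHT_16h (n = 4 each), where the files do not separate the MycER construct from the endogenous gene.

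The spleen libraries held B cell markers at high level, with a sum over 9 markers of 41571 to 46879 FPKM in WT_spleen and 23754 to 37141 in Tg_spleen. The tumour libraries labelled as B cells were lower, at 17417, 19417 and 1432 FPKM in replicates 1, 2 and 3. Replicate 3 goes against its label: beside its low sum of B cell markers, Cd4 was at 9468 FPKM and Siglech, a marker of plasmacytoid dendritic cells, at 2655, against at most 145 and 23.2 in the other two. Against WT_spleen, Tg_spleen had 5 of 9 B cell, 4 of 6 NK cell, 2 of 8 T cell and 2 of 3 plasmacytoid dendritic cell markers called lower. No marker of these types was higher, and 12.2% of all genes were called lower. Against WT_spleen, the tumours had 5 of 9 B cell, 5 of 6 NK cell and 6 of 8 macrophage and monocyte markers lower, beside 17.7% of all genes. There 2 of 8 T cell markers, a count near the 20.3% of all genes called higher, and 1 macrophage marker were higher. Without replicate 3, 8 of 9 B cell markers were lower, beside 3189 of 15126 genes. All 8 fibroblast markers were called higher in the tumours than in WT_spleen, and the summed level of 7 pancreas and salivary gland markers was 2769 to 12387 FPKM, against 46 to 128 in WT_spleen. Because these are bulk samples, fewer cells of a type and less RNA per cell cannot be told apart. Tumour results include all 3 replicates unless stated, and results without replicate 3 follow the counts of members and stand beside the gene lists. Proliferation genes rose with the transgene, 22 of 22 in both Tg_spleen and Tg_lymphnode, beside 15.7% and 20.3% of all genes. Their mean level on the log2 scale was 6.42 to 6.95 in WT_spleen, 7.92 to 9.79 in Tg_spleen and 8.58 to 9.36 in Tg_lymphnode. The part of cell type and of cell division in the results below was not tested. Among fibroblast libraries, those numbered 4 had 1051 to 1943 genes at 0 against 519 to 1173 in the others.

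In spleen B cells of Eμ-myc mice, Prmt5, Ezh2, Dnmt1, Hdac2, Prmt1, Kat2a, Prmt7 and Prmt3 were higher than in wild type, and Prmt2, Hdac9, Kdm5b, Hdac4, Ezh1, Kdm4c, Tet2, Kdm4b, Kdm2a and Kat2b were lower. Of 51 members tested, 8 were higher and 10 lower, where 15.7% of all 14021 genes tested were higher and 12.2% lower. The share of members called higher lay near this background and the share called lower somewhat above it. Their median log2 fold change was -0.06 against -0.05 for all genes. By class, 4 of 8 arginine methyltransferases rose and 1 fell, while of 14 lysine demethylases 4 fell and none rose. In the tumours, 8 of 52 members were higher and 19 lower than in WT_spleen, where 20.3% of all genes were higher and 17.7% lower. The median was -0.29 for members and 0.05 for all genes. Without tumour replicate 3 the counts were 8 and 20, beside 3466 higher and 3189 lower of 15126 genes. With all 3 replicates, 2997 and 2619 of 14758 genes were called. The list counts without replicate 3 below have the same background of 15126 genes. All 8 rises and 18 of the 19 falls were kept, Dnmt3l was lost, and Kdm1b and Tet2 were added. The log2 fold changes without replicate 3 were 1.56 for Prmt5, 1.55 for Ezh2, 1.33 for Dnmt1, 1.26 for Prmt1, 1.13 for Kat2a and 0.95 for Prmt7. On the lower side they were -2.14 for Kdm5b, -2.03 for Hdac9, -1.43 for Kdm2a, -1.09 for Ezh1, -1.02 for Sirt2 and -0.61 for Sirt1, with limma adjusted p of these 12 genes of at most 0.0208. The 2 comparisons share the WT_spleen libraries. Of these calls, 5 of the 8 rises and 5 of the 10 falls in Tg_spleen were kept without any 1 library, and 6 of 8 and 14 of 19 in Tg_lymphnode. The noncoding RNA Rpph1 split the spleen libraries, with 2 of each group above 400000 FPKM. Of the 18 called members, 8 were called among the high libraries alone and 13 among the low ones. Over all genes, the high libraries gave 908 higher and 518 lower of 14202, and the low ones 1960 and 1374 of 14263. Kdm6a was newly called higher among the high libraries (0.66, limma adjusted p = 0.0264) but was at -0.73 (0.0994) among the low ones. Hdac3 was newly called higher among the low libraries (0.68, limma adjusted p = 0.0436).

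**Figure D1:**
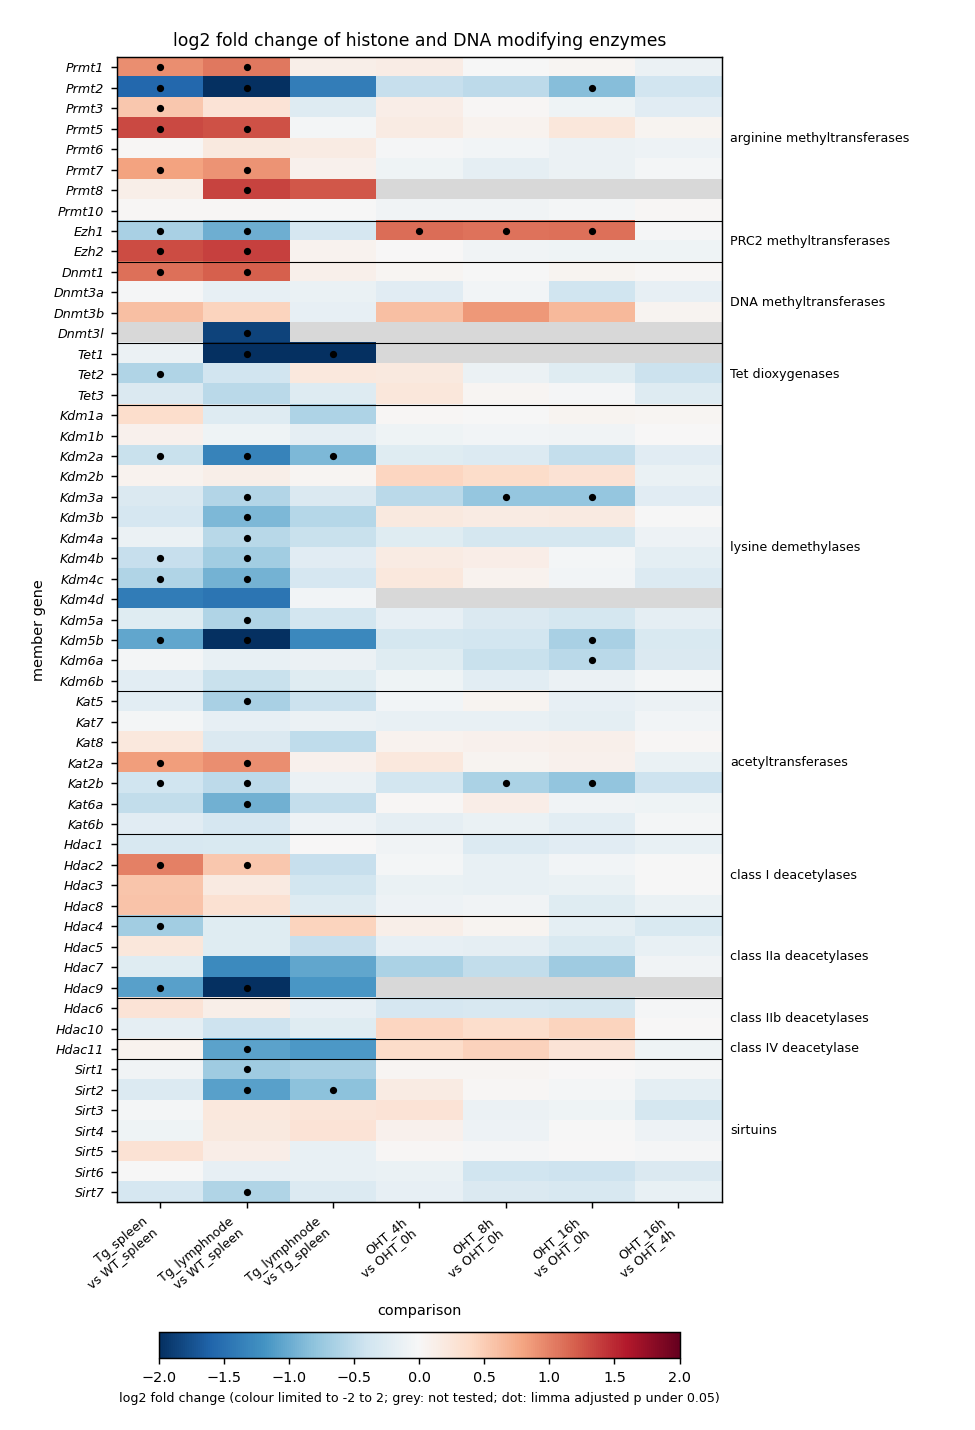
Log2 fold change of each member (rows, grouped by enzyme class) in each of the 7 comparisons (columns); red is higher and blue lower in the first-named group, dots mark limma calls, and grey marks genes not tested. Kat6a, Kat6b, Kat7 and Kat8 are drawn from their older symbols in the B cell columns. Ezh1 is blue in both comparisons with WT_spleen and red at all 3 OHT times, and the Prmt2 row is blue throughout.

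Among the arginine methyltransferases, Prmt5 rose and Prmt2 fell with the transgene. Prmt5 was at 179.8, 162.8, 168.3 and 210.1 FPKM in the WT_spleen libraries, at 295.2, 355.2, 669.9 and 571.7 in Tg_spleen, and at 483, 578 and 292 in Tg_lymphnode. Every transgenic library lay above every wild-type one. The log2 fold change was 1.32 ± 0.25 in Tg_spleen (adjusted p = 0.00609) and 1.27 ± 0.23 in Tg_lymphnode (adjusted p = 0.00439). Prmt2, an enzyme known as a nuclear receptor coactivator, moved the other way, from 39.4, 44.2, 55.7 and 52.7 FPKM in WT_spleen to 19.2, 18.7, 10.7 and 15.5 in Tg_spleen and 5.9, 10.3 and 2.9 in Tg_lymphnode. The 3 groups did not overlap. The log2 fold change was -1.57 ± 0.23 in Tg_spleen (adjusted p = 0.00326) and -2.96 ± 0.41 in Tg_lymphnode (adjusted p = 0.0012; -2.53 ± 0.30, adjusted p = 0.000349, without replicate 3). Within each library, the ratio of Prmt5 to Prmt2 was 3.02 to 4.56 in WT_spleen, 15.4 to 62.6 in Tg_spleen and 56.1 to 100.7 in Tg_lymphnode.

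Prmt1, the main source of asymmetric dimethylarginine, was at 304.8, 322.1, 329.7 and 402.8 FPKM in WT_spleen, at 472.9, 499.2, 1065.4 and 684.3 in Tg_spleen and at 931.8, 707.4 and 521.6 in Tg_lymphnode. All transgenic libraries lay above wild type, and the 2 transgenic groups overlapped. It rose by 0.93 ± 0.24 (adjusted p = 0.0205) and 1.05 ± 0.21 (adjusted p = 0.00646). The first call was lost without WT_spleen replicate 1, 3 or 4 or Tg_spleen replicate 5, with adjusted p up to 0.0593. Prmt7, a monomethylating enzyme, went from 215 ± 10.7 to 381 ± 82.3 FPKM (n = 4 each) and to 400 ± 39.1 in Tg_lymphnode (n = 3), with adjusted p of 0.0076 and 0.00134. Prmt3, which methylates a ribosomal protein, rose in Tg_spleen (322 ± 23 to 469 ± 42.9 FPKM, adjusted p = 0.0114) and was at 395 ± 72.4 in Tg_lymphnode (adjusted p = 0.203). Prmt8, a brain enzyme, was low everywhere, at 1.3 to 3 FPKM in WT_spleen and 5.5 to 6.7 in Tg_lymphnode (adjusted p = 0.0242, and up to 0.0645 without WT_spleen replicate 4 or 6 or Tg_lymphnode replicate 2). Prmt6 and Prmt10 were not called in any comparison.

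The start regions of Prmt1 and Prmt3 are shown, chosen after their values were seen, because both hold CACGTG, the E-box that Myc binds with Max, and both genes were called higher in Tg_spleen. They are RefSeq windows of GRCm38.p6 from 250 bases before to 50 bases after a gene start, written 5′ to 3′ on the gene's strand: chr7:44986371-44986670 (minus strand) for Prmt1 and chr7:49778108-49778407 (plus strand) for Prmt3. Capitals mark CACGTG, first base at -181 in Prmt1 and -13 in Prmt3, and CACGCG or its reverse complement CGCGTG, at position 26 in Prmt3.
Prmt1: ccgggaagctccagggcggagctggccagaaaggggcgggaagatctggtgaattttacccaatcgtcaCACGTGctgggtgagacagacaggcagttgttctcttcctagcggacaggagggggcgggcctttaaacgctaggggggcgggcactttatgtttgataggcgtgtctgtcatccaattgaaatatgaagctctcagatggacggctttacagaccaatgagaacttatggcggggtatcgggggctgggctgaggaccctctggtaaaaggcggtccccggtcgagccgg
Prmt3: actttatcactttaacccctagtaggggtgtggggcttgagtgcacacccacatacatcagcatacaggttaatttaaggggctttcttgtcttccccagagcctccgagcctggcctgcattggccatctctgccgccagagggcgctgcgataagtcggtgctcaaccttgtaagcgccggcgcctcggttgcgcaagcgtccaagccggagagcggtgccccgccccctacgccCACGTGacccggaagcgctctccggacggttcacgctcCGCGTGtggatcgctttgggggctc
CACGTG reads the same on both strands and was found in 9 of 69 member windows (13.0%) and in 7.15% of all 32851 windows. Windows existed for 46 of 56 members; per gene, 9 of these 46 (19.6%) held it in a window, beside 8.09% of all 27025 genes. Among members with a window, CACGTG was held by 2 of 8 higher in Tg_spleen, 1 of 8 lower and 5 of 26 not called. In Tg_lymphnode against WT_spleen it was held by 1 of 8 higher, 4 of 15 lower and 4 of 20 not called. A match is a description of letters and not a bound site. No match was found for Prmt5 or Prmt2 in their windows.

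**Figure D2:**
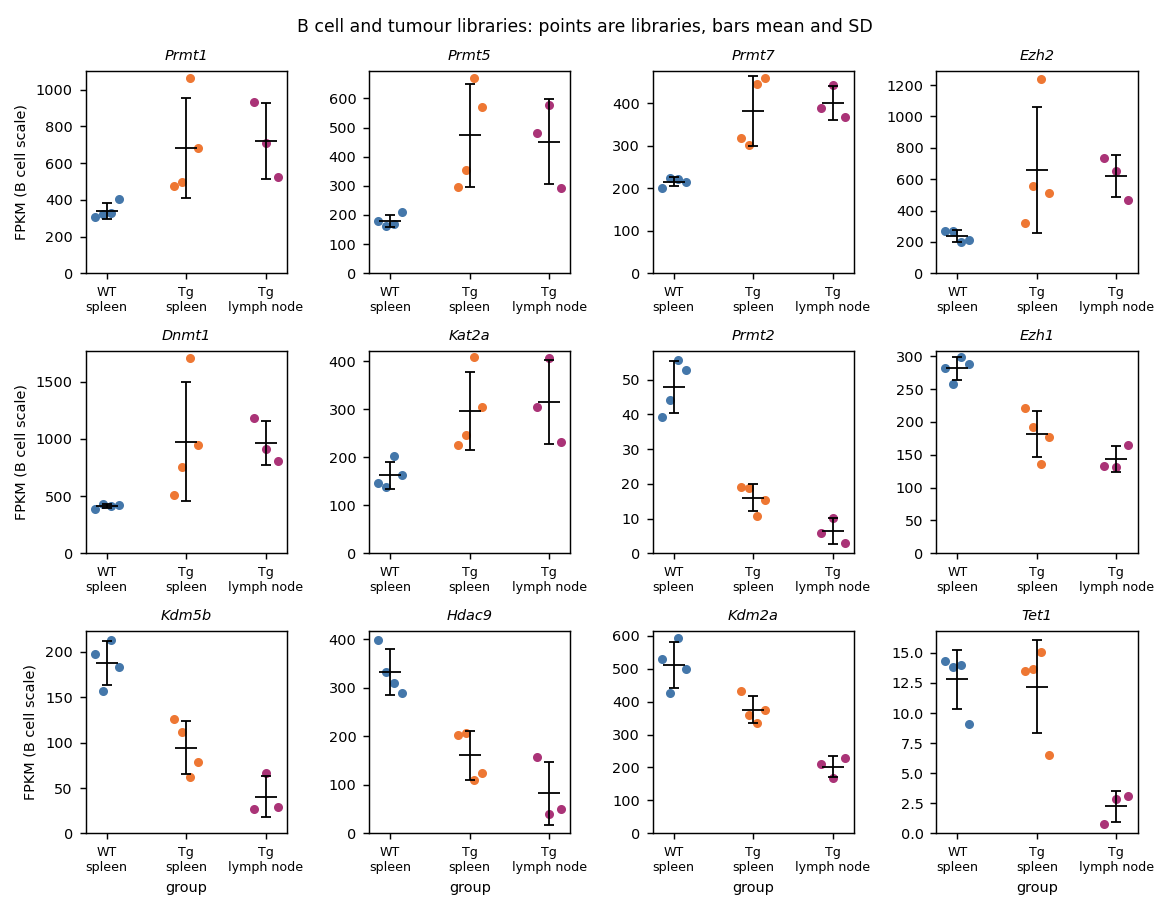
FPKM of 12 members (vertical axes, from 0) in wild-type spleen, transgenic spleen and transgenic lymph node libraries; points are libraries, and the bar and whiskers are mean and SD (n = 4, 4 and 3). In the upper 6 panels the transgenic libraries lie above the wild-type ones, and Prmt2 falls from 39.4 to 55.7 in wild type to 2.9 to 10.3 in the lymph node.

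The 2 Polycomb methyltransferases moved in opposite directions. Ezh2 was at 269, 271.4, 198.4 and 215 FPKM in WT_spleen, 321.5, 556.7, 1240.5 and 514.8 in Tg_spleen and 732.9, 654.4 and 469.9 in Tg_lymphnode. Transgenic libraries were all above wild type, and Tg_spleen replicate 4, the highest for Ezh2, was also the highest for the proliferation genes. Ezh2 rose by 1.30 ± 0.34 (adjusted p = 0.021) in Tg_spleen and 1.36 ± 0.20 (adjusted p = 0.00156) in Tg_lymphnode; the first call was lost without WT_spleen replicate 4 or 6, with adjusted p up to 0.0642. Ezh1 was at 282.3, 258, 299.3 and 288.9 FPKM in WT_spleen, at 221.4, 191.7, 136.6 and 177.8 in Tg_spleen and at 133.4, 130.9 and 165.7 in Tg_lymphnode. All transgenic libraries lay below wild type. The log2 fold change of Ezh1 was -0.65 ± 0.15 (adjusted p = 0.0141) and -0.98 ± 0.14 (adjusted p = 0.00132). The ratio of Ezh2 to Ezh1 was 0.663 to 1.05 in WT_spleen, 1.45 to 9.08 in Tg_spleen and 2.84 to 5.49 in Tg_lymphnode. Of 9 other Polycomb genes, Rbbp4, Rbbp7 and Phf19 rose and Phf1 fell in Tg_spleen, and Rbbp7 and Phf19 rose and Jarid2 and Phf1 fell in Tg_lymphnode. Jarid2, which recruits the complex, was at 143 ± 10.3 FPKM in Tg_lymphnode and 375 ± 32.4 in WT_spleen (log2 fold change -1.38, adjusted p = 0.000254, and -1.44 without replicate 3). Without that replicate Suz12 was called higher as well.

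The start regions of Ezh1 and Ezh2 are shown because these paralogues went opposite ways. Both windows, chr11:101226414-101226713 (minus strand) for Ezh1 and chr6:47594981-47595280 (minus strand) for Ezh2, GRCm38.p6 from RefSeq, hold the E-box variant CACGCG, with its first base at -33 in Ezh1 and at -162 in Ezh2. The Ezh2 window also holds TTTGGCGC, one of 2 E2F motifs searched (the other was TTTCCCGC, both on either strand), at position 4. Capitals mark these motifs.
Ezh1: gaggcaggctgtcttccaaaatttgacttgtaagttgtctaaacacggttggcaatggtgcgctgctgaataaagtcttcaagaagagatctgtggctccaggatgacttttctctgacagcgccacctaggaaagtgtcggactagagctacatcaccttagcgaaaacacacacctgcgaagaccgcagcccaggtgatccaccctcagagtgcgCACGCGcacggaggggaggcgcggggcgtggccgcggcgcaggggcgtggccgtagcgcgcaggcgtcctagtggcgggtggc
Ezh2: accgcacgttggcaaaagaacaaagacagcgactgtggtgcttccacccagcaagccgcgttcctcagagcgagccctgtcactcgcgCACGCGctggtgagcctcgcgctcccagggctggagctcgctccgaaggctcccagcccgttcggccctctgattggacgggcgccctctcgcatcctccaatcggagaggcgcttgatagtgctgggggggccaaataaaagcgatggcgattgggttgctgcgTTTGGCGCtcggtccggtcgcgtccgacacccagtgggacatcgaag
CACGCG on either strand was in 9 of 69 member windows (13.0%) and 9.27% of all windows, and the E2F motifs in 3 of 69 (4.35%) and 1.56%. The 3 windows with an E2F motif belong to Ezh2, Dnmt1 and Sirt4.

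Among the DNA methyltransferases, Dnmt1, which copies methylation after replication, was at 386.7, 434.8, 415 and 420.9 FPKM in WT_spleen, at 506.1, 750.1, 1703.6 and 947.4 in Tg_spleen and at 1178.5, 915.6 and 802.2 in Tg_lymphnode. No transgenic library overlapped with wild type, and the spread in Tg_spleen was wide. It rose by 1.09 ± 0.30 (adjusted p = 0.026) and 1.20 ± 0.16 (adjusted p = 0.00114); the first call was lost without any 1 of the WT_spleen libraries or Tg_spleen replicate 5, with adjusted p up to 0.0669. Uhrf1, the partner that brings Dnmt1 to replicated DNA, went from 115 ± 14.1 to 919 ± 602 FPKM in Tg_spleen (log2 fold change 2.74, adjusted p = 0.0036) and 752 ± 185 in Tg_lymphnode (2.68, adjusted p = 0.000116; 2.89 without replicate 3). Of 10 partners and readers of DNA methylation, Uhrf1, Uhrf2 and Hells rose in both and none fell in Tg_spleen. The de novo enzymes Dnmt3a and Dnmt3b were not called in the main fit. Dnmt3b was called higher in Tg_spleen with a filter of 5 FPKM, under median ratio scaling or quantile normalization, and without Tg_spleen replicate 2. Dnmt3l was called lower in Tg_lymphnode from 0.7 to 3.4 FPKM in WT_spleen and 0 to 0.6 in Tg_lymphnode, too low for a fold change, and the call was lost without Tg_lymphnode replicate 1 or 3 (adjusted p up to 0.0894). Without WT_spleen replicate 1, 4 or 6, or with a filter of 5 FPKM, it did not pass the filter and was not tested.

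Tet1, which oxidises 5-methylcytosine, was at 14.3, 13.8, 14 and 9.1 FPKM in WT_spleen, between 6.5 and 15.1 in Tg_spleen and at 0.8, 2.9 and 3.1 in Tg_lymphnode. Tumours lay below all spleen libraries. Its log2 fold change in Tg_lymphnode was -2.38 ± 0.46 against WT_spleen (adjusted p = 0.00524), and -2.64 ± 0.47 (adjusted p = 0.00266) without replicate 3. Tet2 was lower in Tg_spleen (149 ± 39.5 against 221 ± 23.8 FPKM, adjusted p = 0.0407), but the groups overlapped and the call was lost without any of 7 of the 8 libraries, Tg_spleen replicate 2 being the exception, with adjusted p up to 0.104. In Tg_lymphnode Tet2 was not called with all 3 replicates, and without replicate 3 it was lower (-0.57 ± 0.17, adjusted p = 0.0227). Tet3 was not called.

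Lysine demethylases were lower or not called in both comparisons. Kdm5b, which removes methyl groups from lysine 4 of histone H3, fell from 197.5, 157, 213.3 and 183.3 FPKM in WT_spleen to 125.8, 111.8, 61.9 and 78.8 in Tg_spleen and 26.6, 66.3 and 28.6 in Tg_lymphnode. The transgenic spleen libraries lay below wild type and, apart from replicate 4 at 61.9, above all tumours. The log2 fold changes were -1.03 ± 0.22 (adjusted p = 0.00982) and -2.32 ± 0.32 (adjusted p = 0.00118). Kdm2a, a lysine 36 demethylase and the demethylase with the highest mean level in WT_spleen, was at 528.8, 426, 593 and 499 FPKM there, 432.7, 358, 336.3 and 375.7 in Tg_spleen and 209.1, 168.7 and 229.7 in Tg_lymphnode, with tumours below all spleen libraries and the spleen groups overlapping. It fell by 1.34 on the log2 scale in Tg_lymphnode (± 0.17, adjusted p = 0.000805). Its call in Tg_spleen (log2 fold change -0.44 ± 0.14, adjusted p = 0.0415) was lost without WT_spleen replicate 1, 4 or 6 or Tg_spleen replicate 3, 4 or 5, with adjusted p up to 0.113. Kdm5a was at 508 ± 37 FPKM in WT_spleen, beside 512 ± 69.3 for Kdm2a, a difference well inside the spread.

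Kdm4c fell in both, from 294 ± 22 to 197 ± 48.8 FPKM in Tg_spleen (n = 4 each, adjusted p = 0.0286) and to 158 ± 46.3 in Tg_lymphnode (adjusted p = 0.00992); the first call was lost without any WT_spleen library or Tg_spleen replicate 4 or 5, with adjusted p up to 0.0797. Its second start window, chr4:74251629-74251928 (plus strand, GRCm38.p6, RefSeq), is shown because it holds CACGTG at -85 and -53 and CGCGTG at -43, in capitals, in a gene that fell.
Kdm4c: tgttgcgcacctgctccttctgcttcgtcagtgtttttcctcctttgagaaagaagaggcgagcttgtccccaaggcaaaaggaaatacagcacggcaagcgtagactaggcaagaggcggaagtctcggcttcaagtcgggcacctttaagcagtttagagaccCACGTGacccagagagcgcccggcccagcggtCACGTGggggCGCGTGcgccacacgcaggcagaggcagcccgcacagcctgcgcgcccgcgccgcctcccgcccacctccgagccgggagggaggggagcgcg
Kdm4b fell too, in Tg_spleen by 0.46 and in Tg_lymphnode by 0.69 on the log2 scale, and the Tg_spleen call was lost without WT_spleen replicate 1, 3 or 4 or Tg_spleen replicate 3 (adjusted p up to 0.0629). In Tg_lymphnode, Kdm3a, Kdm3b, Kdm4a and Kdm5a were called lower as well, with log2 fold changes of -0.58, -0.91, -0.56 and -0.61. Kdm4a lost its call without any WT_spleen library or Tg_lymphnode replicate 1 or 2, with adjusted p up to 0.108. Kdm1a, Kdm1b, Kdm2b, Kdm4d, Kdm6a and Kdm6b were not called in either comparison. Without replicate 3, Kdm1b was called lower too (-0.77 ± 0.14, adjusted p = 0.00268).

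The paralogues Kat2a and Kat2b, lysine acetyltransferases of the SAGA family, moved apart. Kat2a was at 146.2, 137.5, 202 and 163.7 FPKM in WT_spleen, 225.5, 247.1, 408.3 and 304.7 in Tg_spleen and 304.6, 406.8 and 232.3 in Tg_lymphnode, with no overlap between wild-type and transgenic libraries, and adjusted p of 0.0146 and 0.0122. Kat2b was at 128 ± 3.48 FPKM in WT_spleen, 97 ± 10.8 in Tg_spleen and 88.9 ± 4.74 in Tg_lymphnode, lower in both (adjusted p = 0.0337 and 0.0151); the Tg_spleen call was lost without 7 of the 8 libraries, all but Tg_spleen replicate 2, with adjusted p up to 0.0843. Of the acetyltransferases named Myst in the B cell files, Myst3 (Kat6a) fell in Tg_lymphnode, from 594 ± 96.4 to 302 ± 42.6 FPKM (log2 fold change -0.97 ± 0.17, adjusted p = 0.00402), while Myst1, Myst2 and Myst4 were not called. Kat5 fell in Tg_lymphnode (adjusted p = 0.0195, up to 0.0592 without WT_spleen replicate 4 or 6 or Tg_lymphnode replicate 2); 18.9% of its exon bases overlap Rnaseh2c on the other strand, and the strand setting of the counting is not stated. Of 34 subunits of acetyltransferase complexes, 7 rose and 3 fell in Tg_spleen, beside 15.7% and 12.2% of all genes, and 7 rose and 6 fell in Tg_lymphnode, beside 20.3% and 17.7%, or 9 and 6 without replicate 3. These counts lay near the shares over all genes. Ruvbl1, an ATPase of the TIP60 complex, went from 106 ± 13.7 to 248 ± 74.2 FPKM in Tg_spleen (log2 fold change 1.18, adjusted p = 0.00641).

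Among the deacetylases, Hdac2 rose while the class IIa enzymes Hdac4 and Hdac9 fell in Tg_spleen. Hdac2, a class I enzyme of the Sin3 and NuRD complexes, was at 266.4, 252.1, 242.7 and 310.1 FPKM in WT_spleen and 358.1, 445.8, 810.5 and 633.1 in Tg_spleen, without overlap (log2 fold change 1.00 ± 0.23, adjusted p = 0.0138). In Tg_lymphnode it was at 391 ± 55.5 (adjusted p = 0.0252, and up to 0.0685 without WT_spleen replicate 1, 3 or 4 or Tg_lymphnode replicate 1). Hdac9, a class IIa enzyme that represses with Mef2, was at 398.3, 333.4, 309.7 and 288.5 FPKM in WT_spleen, 202.1, 206, 109.6 and 125.4 in Tg_spleen and 157.7, 41.1 and 50.5 in Tg_lymphnode. Transgenic libraries lay below wild type, with log2 fold changes of -1.09 ± 0.22 (adjusted p = 0.00806) and -2.25 ± 0.43 (adjusted p = 0.00529). Hdac4 fell in Tg_spleen, from 107 ± 17.5 to 66 ± 9.61 FPKM (adjusted p = 0.0152), and was at 94.2 ± 34.8 in Tg_lymphnode (adjusted p = 0.517); the direct comparison of Tg_lymphnode with Tg_spleen gave a log2 fold change of 0.44 ± 0.30 (adjusted p = 0.42). Hdac7 was at 238.7 and 239.6 FPKM in tumour replicates 1 and 2 and 22.4 in replicate 3, beside 271 ± 65 in WT_spleen, and was not called. Hdac11 was called lower in Tg_lymphnode (log2 fold change -1.07, adjusted p = 0.0384, and -1.36, adjusted p = 0.0084, without replicate 3), and lost without any WT_spleen library or Tg_lymphnode replicate 1 or 2; 22.4% of its exon bases overlap an antisense gene. Of 24 subunits of deacetylase complexes, 3 rose and 3 fell in Tg_spleen, beside 15.7% and 12.2% of all genes, a count near those shares. In Tg_lymphnode 2 rose and 7 fell, beside 20.3% and 17.7% (3 and 7 without replicate 3). Among the 7 was Chd3 (380 ± 49.2 to 78.6 ± 34.4 FPKM, log2 fold change -2.36, adjusted p = 0.000816, and -1.99, adjusted p = 0.000117, without replicate 3).

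No sirtuin was called in Tg_spleen with limma, where Sirt2 alone of the 7 was lower and 0 were higher at an unadjusted p under 0.05. Sirt2 was at 162.9, 163.7, 163.9 and 190.2 FPKM in Tg_spleen. In Tg_lymphnode Sirt2, the cytoplasmic tubulin deacetylase, was at 118.4, 86.5 and 86.7 FPKM, below the 190, 198.7, 228.5 and 205.1 of WT_spleen (log2 fold change -1.09 ± 0.16, adjusted p = 0.00168). Sirt1 was lower in tumours, with 141 ± 28.4 FPKM, than in WT_spleen, with 228 ± 23.5 (adjusted p = 0.0128). Sirt7, the nucleolar sirtuin, was lower at 321 ± 52.4 against 488 ± 73.3 (adjusted p = 0.0288, and up to 0.0812 without WT_spleen replicate 3, 4 or 6 or Tg_lymphnode replicate 1). Sirt3, Sirt4, Sirt5 and Sirt6 were not called in either comparison.

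Other chromatin enzymes were counted from lists, none of which was tested against all genes. Of 24 histone lysine methyltransferases, 7 rose and 2 fell in Tg_spleen, beside 15.7% and 12.2% of all genes, and 6 rose and 5 fell in Tg_lymphnode, beside 20.3% and 17.7%, with the same counts without replicate 3. In Tg_lymphnode these counts lay near the shares over all genes. Smyd2 rose most clearly, from 41.7 ± 6.55 to 252 ± 57.2 FPKM in Tg_spleen (log2 fold change 2.57, adjusted p = 0.000446) and 482 ± 72 in Tg_lymphnode (3.52, adjusted p = 8.04e-05; 3.62 without replicate 3). Of 9 arginine methyltransferase partners and methionine cycle genes, which supply the methyl donor, Clns1a, Mat2a and Ahcy rose in both, and Mat2b fell in Tg_lymphnode; without replicate 3 there were 5 rises and 1 fall there, which was Ahcyl2 and not Mat2b. Mat2a, which makes S-adenosylmethionine, went from 657 ± 59 to 1195 ± 205 FPKM in Tg_spleen (log2 fold change 0.85, adjusted p = 0.00525). Of 12 related enzymes outside the symbols, Hat1 and Elp3 rose and Ncoa1 fell in Tg_spleen, and 4 rose and 7 fell in Tg_lymphnode, where the acetyltransferase Ep300 had 270 ± 24.6 FPKM and 551 ± 93.4 in WT_spleen (log2 fold change -1.02, adjusted p = 0.00275). Without replicate 3 the counts were again 4 and 7, and Ep300 was at -0.98 (adjusted p = 0.00334).

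Against Tg_spleen, the tumours had 3 members lower and 0 higher of 51 by limma, beside 2.39% lower and 3.56% higher over all genes. At an unadjusted p under 0.05, 10 members were lower and 1 higher. The 3 were Tet1 (log2 fold change -2.27 ± 0.52, adjusted p = 0.0412), Kdm2a (-0.90 ± 0.18, adjusted p = 0.0285) and Sirt2 (-0.82 ± 0.19, adjusted p = 0.0402), and their values above show the tumour libraries below all Tg_spleen libraries. The Tet1 call was lost without any Tg_spleen library or Tg_lymphnode replicate 1 or 2 (adjusted p up to 0.124). The Kdm2a call was lost without Tg_spleen replicate 2, 3 or 5 or Tg_lymphnode replicate 1 or 2 (up to 0.0885), and the Sirt2 call without any Tg_spleen library or Tg_lymphnode replicate 2 or 3 (up to 0.119). Kdm5b and Prmt2 were lower with adjusted p of 0.0945 and 0.127. For Ezh2 the difference was 0.07, with a 95% interval from -0.89 to 1.02.

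In the fibroblasts, on the deposited scale, Ezh1 was higher after OHT at every time and up to 5 members were lower, and some of the other calls changed with the scaling. Of 51 members tested on that scale, Ezh1 was the one higher at 4, 8 and 16 h, beside 1.9%, 1.21% and 1.76% of 12934 genes higher; 0, 2 and 5 members were lower, beside 2.88%, 0.982% and 7.75%. At 4 h, 3 members were lower at an unadjusted p under 0.05. Median ratio scaling called 4, 4 and 6 members higher and 2, 3 and 3 lower at 4, 8 and 16 h, and quantile normalization 4, 5 and 7 higher and 2, 3 and 4 lower, Ezh1 among the higher each time. Over all 12934 genes, median ratio scaling called 738, 652 and 979 higher and 719, 385 and 947 lower. Quantile normalization called 888, 681 and 1022 genes higher and 892, 476 and 1032 lower. Both called more genes higher at each time than the deposited scale did. Both also kept the falls of Kat2b and Kdm3a at 8 and 16 h and of Prmt2 at 16 h. The Kdm5b call at 16 h was lost under both, and the Kdm6a call under median ratio scaling. The 3 comparisons share the OHT_0h libraries. Dnmt3l, Hdac9, Kdm4d, Prmt8 and Tet1 were under the limit of 1 FPKM and not tested. Between OHT_16h and OHT_4h no member and no gene was called by limma, where 2 members were lower and 0 higher at an unadjusted p under 0.05.

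Ezh1 was at 5.91, 6.481, 5.939 and 5.108 FPKM in OHT_0h, at 13.333, 13.781, 14.271 and 11.952 in OHT_4h, at 13.458, 13.601, 13.761 and 11.332 in OHT_8h and at 14.208, 12.792, 13.811 and 11.616 in OHT_16h. Each treated library was above each control, and the ranges of the 3 times overlapped. The log2 fold changes were 1.12 ± 0.14, 1.09 ± 0.14 and 1.10 ± 0.14, with adjusted p of 6.54e-05, 9.81e-05 and 7.29e-05. Leaving out any 1 library kept all 3 calls. Ezh2, in contrast, was at 32.4 ± 2.9 FPKM in OHT_0h and 31.1 ± 7.26 in OHT_16h (log2 fold change -0.08, 95% interval from -0.40 to 0.24). The ratio of Ezh2 to Ezh1 therefore went from 4.96 to 6.13 in OHT_0h to 1.94 to 2.92 in OHT_16h. None of the 9 other Polycomb genes was called at any time.

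**Figure D3:**
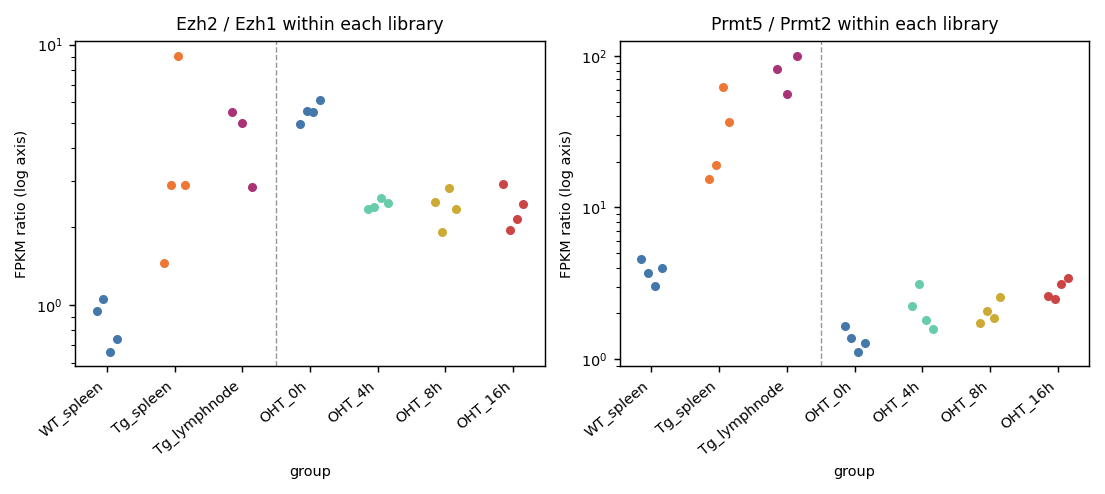
Ratio of Ezh2 to Ezh1 (left) and of Prmt5 to Prmt2 (right) in each library, on log axes, by group; the dashed line separates B cell from fibroblast groups. The Ezh2 to Ezh1 ratio is higher in transgenic than in wild-type libraries and lower after OHT than at 0 h, while the Prmt5 to Prmt2 ratio is higher in transgenic libraries and, without overlap, at 8 and 16 h of OHT.

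Prmt2 was the member with the largest fall at 16 h. It was at 26.611, 27.029, 30.81 and 27.424 FPKM in OHT_0h, 18.309, 15.034, 26.77 and 21.848 in OHT_4h, 24.284, 18.443, 21.247 and 14.543 in OHT_8h and 19.735, 13.306, 17.3 and 11.715 in OHT_16h. All OHT_16h libraries were below all controls, while 1 OHT_4h library reached into the control range. The log2 fold change of Prmt2 at 16 h was -0.86 ± 0.19 (adjusted p = 0.0065). Kat2b was at 23.024, 24.541, 25.381 and 29.693 FPKM in OHT_0h and 19.463, 11.808, 14.154 and 13.885 in OHT_16h, without overlap (-0.79 ± 0.17, adjusted p = 0.00435). Kdm3a, a lysine 9 demethylase, was at 28.276, 23.691, 26.855 and 23.3 FPKM in OHT_0h and 17.841, 11.831, 17.559 and 12.55 in OHT_16h (-0.77 ± 0.18, adjusted p = 0.00888). Prmt2, Kat2b and Kdm3a kept their 16 h calls in all 18 alternatives run. At 8 h, Kat2b was at 17.108, 15.331, 17.006 and 15.496 FPKM and Kdm3a at 17.409, 15.392, 16.932 and 10.151, below all controls. Both were called (adjusted p = 0.0438 for Kat2b and 0.0234 for Kdm3a), and the first was lost without any 1 of the 8 libraries, with adjusted p up to 0.145. The Kdm3a call was lost without OHT_0h replicate 1, 2 or 3 or OHT_8h replicate 2 or 4, with adjusted p up to 0.089.

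Kdm5b and Kdm6a, the latter a lysine 27 demethylase, were called lower at 16 h (-0.65 ± 0.20, adjusted p = 0.0457, and -0.54 ± 0.15, adjusted p = 0.03). Kdm5b was at 11.317, 11.859, 11.454 and 15.738 FPKM in OHT_0h and 10.298, 6.482, 7.069 and 7.655 in OHT_16h, and the groups did not overlap. Kdm6a was at 19.932, 16.334, 21.554 and 20.673 FPKM in OHT_0h and 16.059, 10.47, 14.016 and 13.166 in OHT_16h, again without overlap. Both calls were lost without 1 of several libraries, among them OHT_0h replicates 1, 3 and 4 and OHT_16h replicates 2 and 4 (adjusted p up to 0.149 and 0.114). They were also lost without the libraries numbered 4 (adjusted p = 0.0819 and 0.0735), and under median ratio scaling (0.0579 and 0.0686), which moved the median log2 fold change of all genes at 16 h from -0.14 to 0.05. That scaling gave 979 genes higher and 947 lower at 16 h, where the deposited scale gave 228 and 1002, and members called became 6 higher and 3 lower. The additional rises were Dnmt3b, Hdac10, Kdm2b, Kdm3b and Prmt5, which on the deposited scale had log2 fold changes of 0.65 (Dnmt3b), 0.44 (Hdac10) and 0.22 (Prmt5) with adjusted p of 0.117, 0.0522 and 0.397.

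**Figure D4:**
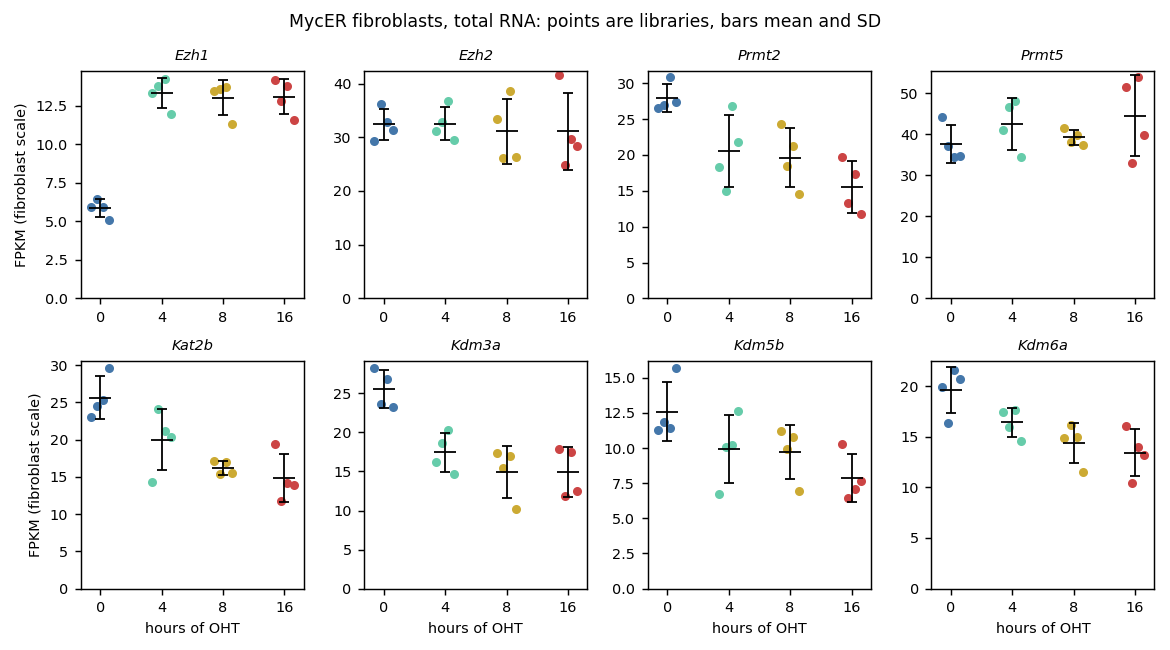
FPKM of 8 members (vertical axes, from 0) in fibroblast libraries after 0, 4, 8 and 16 h of OHT; points are libraries and bars are mean and SD (n = 4 each). Ezh1 is above control at all 3 times, with 11.3 to 14.3 FPKM against 5.11 to 6.48, and Prmt2 is lowest at 16 h.

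On the deposited scale, the members that rose with the transgene in B cells gave no call here. Prmt5 was at 37.6 ± 4.54 FPKM in OHT_0h and 44.6 ± 9.87 in OHT_16h (log2 fold change 0.22, 95% interval from -0.09 to 0.53), but was called higher under median ratio scaling (0.42, adjusted p = 0.0193) and quantile normalization (0.35, adjusted p = 0.037). Prmt1 was at 44.7 ± 4.75 and 45.8 ± 6.04, Dnmt1 at 53.8 ± 0.295 and 55.8 ± 3.37 and Kat2a at 35.6 ± 5.07 and 38.1 ± 7.39. Fibroblast values level off at high expression: the mean exceeded 120 FPKM in 0.0554% of genes, and Hdac1 and Hdac3 were the only members above 60. A deposited value of 60 FPKM would correspond to 84.1 if the values were bounded at 117, so differences at that level would be compressed; the cause of the levelling was not tested. The proliferation genes had a mean of 5.71 to 6.09 on the log2 scale in all 16 libraries, with 1 of 22 called (Ccnb2, lower at 16 h). Of the other chromatin lists, no gene was called by limma at 4 or 8 h.

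Levels placed the same families differently in the 2 systems. In WT_spleen the highest members were Kdm2a, Kdm5a, Sirt7, Kdm3b, Dnmt1 and Hdac10, with Myst3 (Kat6a) above them at 594 ± 96.4 FPKM, and in OHT_0h they were Hdac3 (68.8 ± 7.47 FPKM) and Hdac1 (68.7 ± 9.7), which did not differ beyond their spread. Ezh1 stood above Ezh2 in 3 of 4 WT_spleen libraries, and Ezh2 above Ezh1 in all 16 fibroblast libraries. Hdac9, high in B cells, was at 0.049 to 0.117 FPKM in the fibroblasts.

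Nascent RNA was measured in 1 library per time, so differences have no replicate check. Of 51 members with at least 1 FPKM in a 4sU library, 2 were higher and 2 lower by 1.5-fold or more at 4 h, beside 4.83% and 3.52% of 12375 genes. Ezh1 went from 2.693 to 7.26 FPKM and Hdac11 from 0.506 to 2.984, while Kdm3a went from 15.521 to 7.83 and Prmt2 from 7.01 to 4.42. Ezh1, Kdm3a and Prmt2 thus had the same direction in nascent as in total RNA. Hdac11 was at 1.82 ± 0.327 FPKM in total RNA at 0 h and 2.58 ± 0.874 at 4 h (adjusted p = 0.497). Next among members with at least 5 FPKM were Prmt6 (7.919 to 11.83), Prmt5 (17.316 to 23.282) and Kat2a (17.523 to 23.147) upward, and Hdac7 (21.624 to 14.667) and Kat2b (6.056 to 4.002) downward. Over all members the median log2 ratio was -0.03, and 0.02 over all genes. Among members, the ratio of 4sU FPKM to mean total RNA FPKM at 0 h was highest for Kdm6b, a lysine 27 demethylase. Its log2 ratio was 1.41 (99.6th percentile of genes), where the median of all genes was -1.14. Low values are spaced as if scaled to 24.3 to 27.7 M reads in the 4sU libraries and 17.0 to 17.2 M in total RNA. The ratio is therefore not a share of the RNA.

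**Figure D5:**
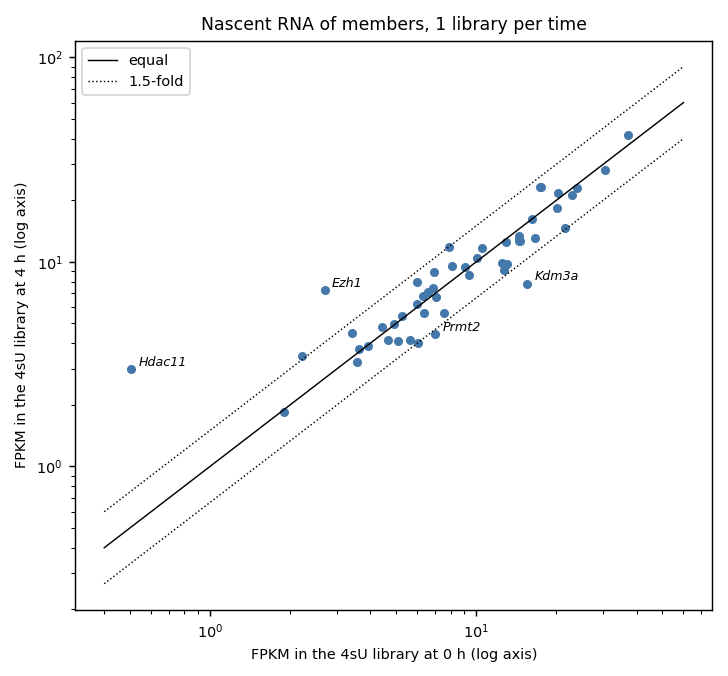
FPKM of the 51 members in the 4sU library at 0 h (horizontal, log axis) and at 4 h (vertical, log axis); the solid line marks equal values and the dotted lines 1.5-fold. Ezh1, Hdac11 and Dnmt3b lie above the upper line and Kdm3a, Prmt2 and Kat2b below the lower one. Dnmt3b and Kat2b stay within 1.5-fold after adding 0.5 FPKM, so they are not labelled or counted.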

How the data were processed

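RNA of 11 B cell and tumour and 18 fibroblast libraries was read as 1 deposited value per gene. Values are FPKM per the file headers, deposited by the authors with 1 decimal (B cells) or 3 (fibroblasts). Per the submitters' processing notes, reads were aligned to mm9, with TopHat, SAMtools, HTSeq (0.5.3p9) and TopHat2 (2.0.8) named as tools; annotation, strand setting and scale are not given in the sources used here. Per the labels' protocols, RNA was total RNA after ribosomal RNA removal. Each of the 7 tested comparisons used log2(FPKM + 0.5). A gene entered if it reached 1 FPKM in a number of libraries equal to the size of the smaller group, and the values were fitted by limma 3.58.1 in R 4.3.3 with trend and robust. For B cells only the 2 groups compared were fitted; total RNA from fibroblasts (16 libraries) shared 1 fit. P-values were adjusted by Benjamini-Hochberg, with a call under 0.05. 4sU has no test; members were counted past 1.5-fold after adding 0.5. Promoter windows and motifs are of GRCm38.p6 from RefSeq, with no mm9 coordinates used. Tables and figures used Python 3.11.15, NumPy 2.4.6, pandas 2.3.3 and Matplotlib 3.10.9. The fit was tested on simulated data. Replicate numbers were checked for pairing and were not taken to pair the samples, since the labels give no shared source. Same-numbered fibroblast libraries deviated together to differing degrees, with correlations of 0.018 to 0.643.

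Members and lists were chosen with earlier results of these data known. The rule for named genes takes, per comparison, the 6 largest rises and falls among called members with a mean of at least 5 FPKM in the higher group, the highest member of each family, the 4 largest 4sU changes with at least 5 FPKM, and up to 3 genes per other list. The fits were repeated with each library left out, with quantile or median ratio normalization, with pseudocounts of 0.1 and 1, with the low value filter removed or raised to 5 FPKM, with other groups in the fit and with the replicate number as a block; those without the fibroblast libraries numbered 4, also without OHT_16h replicate 2, and the split by Rpph1 were chosen after seeing the data. Some results on single genes of the marker and partner lists are not reported here.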

Additional observations from a re-analysis of the deposited data

Results flagged for a closer look

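In groups of 4 libraries, 10 of 155 member levels held a library far from the other 3, and chance flags about 1 in 20 groups. Tet1 was at 9.1 FPKM in WT_spleen replicate 6, against 13.8 to 14.3. Sirt2 was at 190.2 FPKM and Sirt7 at 500 FPKM in Tg_spleen replicate 5, against 162.9 to 163.9 and 343 to 360.3. Kdm5b was at 15.738 FPKM in OHT_0h replicate 4, against 11.317 to 11.859, and Kdm1a at 39.034 FPKM in OHT_4h replicate 1, against 37.19 to 37.45. The remaining 5 were in OHT_8h replicate 4: Dnmt1 at 56.933 FPKM, Ezh1 at 11.332, Hdac4 at 13.223, Hdac7 at 7.731 and Kat2a at 26.817. Ezh1 moved in opposite directions, with a log2 fold change of -0.65 in Tg_spleen and of 1.12, 1.09 and 1.10 at 4, 8 and 16 h of OHT, each library of one group on the same side of its controls. The difference was not tested, since B cell and fibroblast files are on different scales.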

How the results depend on the processing

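No fold change of a member called in the main fit reversed. Members not called there were not checked for this, and a count could only stay or move. Leaving out 1 library moved 27 of 108 counts of called members by over 1.5 times, and other alternatives moved 39 of 138. Without 1 library, the members higher and lower numbered 5 to 11 and 5 to 11 in Tg_spleen against WT_spleen, 6 to 8 and 14 to 20 in Tg_lymphnode against WT_spleen, and 0 and 0 to 2 in Tg_lymphnode against Tg_spleen. They numbered 1 to 2 and 0 at 4 h of OHT, 1 to 2 and 0 to 1 at 8 h, and 1 to 2 and 3 to 6 at 16 h. Fitting all 3 B cell groups together gave 4 lower in Tg_spleen against WT_spleen, and 1 higher and 9 lower in Tg_lymphnode against Tg_spleen. Over all genes this fit gave 769 lower of 14627, and 1056 higher and 1071 lower of 15133. Libraries with high or low Rpph1 gave 2 and 6 members lower in Tg_spleen, beside 518 of 14202 and 1374 of 14263 genes. Median ratio scaling gave 4 higher and 2 lower at 4 h, 4 higher and 3 lower at 8 h and 6 higher and 3 lower at 16 h. Quantile normalization gave 4 higher and 2 lower, 5 higher and 3 lower, and 7 higher and 4 lower at those times. Counts over all genes under both scalings stand with the fibroblast results. Fits of only 2 groups gave 2 higher and 2 lower at 4 h and 3 lower at 16 h, and no filter gave 1 lower at 8 h. Over all genes these gave 352 higher and 794 lower of 12669, 769 lower of 12633, and 97 lower of 21634. Without the libraries numbered 4 there were 1 lower at 4 h, and 2 higher and 1 lower at 8 h. At 16 h there were 2 higher and 3 lower. Leaving out OHT_16h replicate 2 as well gave 3 higher and 3 lower, 3 higher, and 5 higher and 3 lower at the 3 times. Over all genes the first fit gave 865 lower, 262 higher and 171 lower, and 295 higher and 840 lower of 13001. The second gave 729 higher and 1384 lower of 12997, 584 higher of 12997, and 883 higher and 613 lower of 13156. For 4sU, a pseudocount of 1 gave 1 lower and median ratio scaling 4. Other causes were not tested.

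With the replicate block there were 2 members higher and 0 lower in Tg_spleen against WT_spleen, beside 575 higher and 265 lower of 14021 genes. In Tg_lymphnode there were 0 and 0 against WT_spleen and 0 lower against Tg_spleen. The block called 0 of 14758 and 0 of 14692 genes there. The B cell groups share few replicate numbers, so this fit had little spread left to estimate and its low counts do not describe the members. The block gave 3 higher and 2 lower at 4 h, 2 higher and 3 lower at 8 h and 3 higher and 7 lower at 16 h. Over 12934 genes it gave 408 higher and 697 lower, 313 and 416, and 349 and 1722 at those times. The labels give no shared source for a number, and not every same-numbered pair correlated above 0.1, so the numbers were not taken to pair the samples: same-numbered fibroblast libraries deviated together with a correlation of 0.018 to 0.643, over 0.1 in 19 of 24 pairs, and 9 of 16 libraries were closest to their own number. These 9 include all libraries numbered 2 or 4, a hint of a link from the data and not from the design.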
